A study of Mus musculus with 20 samples.

Results

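The 10 genes described here encode the MHC class II machinery of the mouse: the classical chains H2-Aa, H2-Ab1 and H2-Eb1, the invariant chain Cd74, the activator Ciita, the DM chains H2-DMa, H2-DMb1 and H2-DMb2, and the DO chains H2-Oa and H2-Ob. They were taken by symbol from 24421 genes counted in each of 20 RNA-seq libraries, and all 10 passed the filter on low counts. On mm10, 8 of them lie on chromosome 17 between 34092340 and 34316674, Cd74 on chromosome 18 between 60803848 and 60812652, and Ciita on chromosome 16 between 10480059 and 10528418. The libraries are 4 each of peritoneal macrophages from the peritoneal cavity, choroid plexus macrophages, dura macrophages labelled MHC II hi, dura macrophages labelled MHC II lo, and brain microglia, all from C57BL/6JRj mice. The dura forms the outermost covering of the brain, and the choroid plexus makes cerebrospinal fluid. Titles of the MHC II lo samples read "int"; the population is called MHC II-low here. Because the dura populations were named for MHC class II, the difference of these genes between them describes how the cells were divided and is not a finding. No treatment, genotype or age is given for the mice, and nothing in the labels states that replicates came from different animals, so p-values measure the spread among these libraries, possibly a technical one.

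MHC class II molecules display peptides from engulfed protein to CD4 T cells. The classical alpha and beta chains pair in the endoplasmic reticulum with the invariant chain, which blocks the peptide groove and steers the complex to endosomes. There DM removes the last fragment of the invariant chain and edits the bound peptides, and DO, a DM-binding partner best known from B cells, holds DM back. Ciita binds no DNA itself: it is recruited to an assembly of RFX, CREB and NF-Y factors on class II promoters and switches on the classical chains, Cd74 and DM. Border macrophages of the brain are known to include cells with and without surface MHC class II, and resting microglia carry little of it.

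Promoters are shown because class II promoters are where Ciita and its partner factors act; no test of promoter letters against levels was made. RefSeq windows of 300 bases, 250 before and 50 after a transcript start (build GRCm38.p6), were on hand for 7 of the 10 members, as 8 windows. Capitals mark AAC followed after any 2 bases by ATGATG, letters of the X box that RFX and CREB bind, and TGATTGG, letters of the Y box that NF-Y binds. These motifs were chosen with the sequences in view, and both strands were searched. Each stretch of 57 bases is written 5′ to 3′ on the gene's strand, which is the minus strand for H2-Aa and the plus strand for the others.
H2-Aa, chr17:34287857-34287913: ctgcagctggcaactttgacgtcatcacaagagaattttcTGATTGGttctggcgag
H2-Eb1, chr17:34305766-34305822: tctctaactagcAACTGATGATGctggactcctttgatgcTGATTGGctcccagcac
H2-DMb1, chr17:34153088-34153144: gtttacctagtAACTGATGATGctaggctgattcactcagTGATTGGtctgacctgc
H2-DMb2, chr17:34145117-34145173: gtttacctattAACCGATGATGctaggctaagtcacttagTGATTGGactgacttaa
H2-Oa, chr17:34092294-34092350: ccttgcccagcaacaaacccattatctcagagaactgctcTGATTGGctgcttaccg
H2-Ob, chr17:34238806-34238862: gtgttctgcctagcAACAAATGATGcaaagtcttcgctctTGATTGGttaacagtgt

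TGATTGG stood in the windows of 6 members, 45 to 92 bases before the start, and in 7.82% of all 32851 windows. The X box letters stood in 0.137% of all windows. Both motifs together were found in 9 windows, 0.0274% of all, and 4 of the 9 belong to members: H2-Eb1, H2-DMb1, H2-DMb2 and H2-Ob. The bases between the motifs numbered 17 in H2-Eb1, 18 in H2-DMb1, 18 in H2-DMb2 and 15 in H2-Ob. Neither motif was in the windows of H2-DMa, which says only that these letters are not there.

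Libraries held 13383274–32611875 gene counts and counts for 13111–15446 genes. Levels are in CPM, counts scaled to a library of 1e+06 after TMM factors of 0.923–1.05, and a floor of 3 counts came to 0.0964–0.222 CPM. Macrophage markers (6 genes, among them Csf1r and Adgre1) summed to 4571–7186 CPM in peritoneal libraries and to 9374–18612 CPM in the others. Large peritoneal macrophage markers, border macrophage markers and microglia markers were each present in the population they mark. T and NK cell genes were near 0 in all libraries, and the B cell factor Pax5 had no count outside peritoneal macrophages, where it had 2. Microglia replicate 3 stood apart: 5 genes of choroid plexus epithelium, led by Ttr and Enpp2, summed to 19578 CPM there, against 62.3, 683 and 316 CPM in microglia replicates 1, 4 and 5 and 3796–7121 CPM in choroid plexus libraries. Its part in the results was not tested beyond leaving that library out, after which the number of members called stayed the same in all 4 comparisons with microglia. In bulk libraries, fewer cells of a type and less RNA per cell cannot be told apart.

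**Figure D1:**
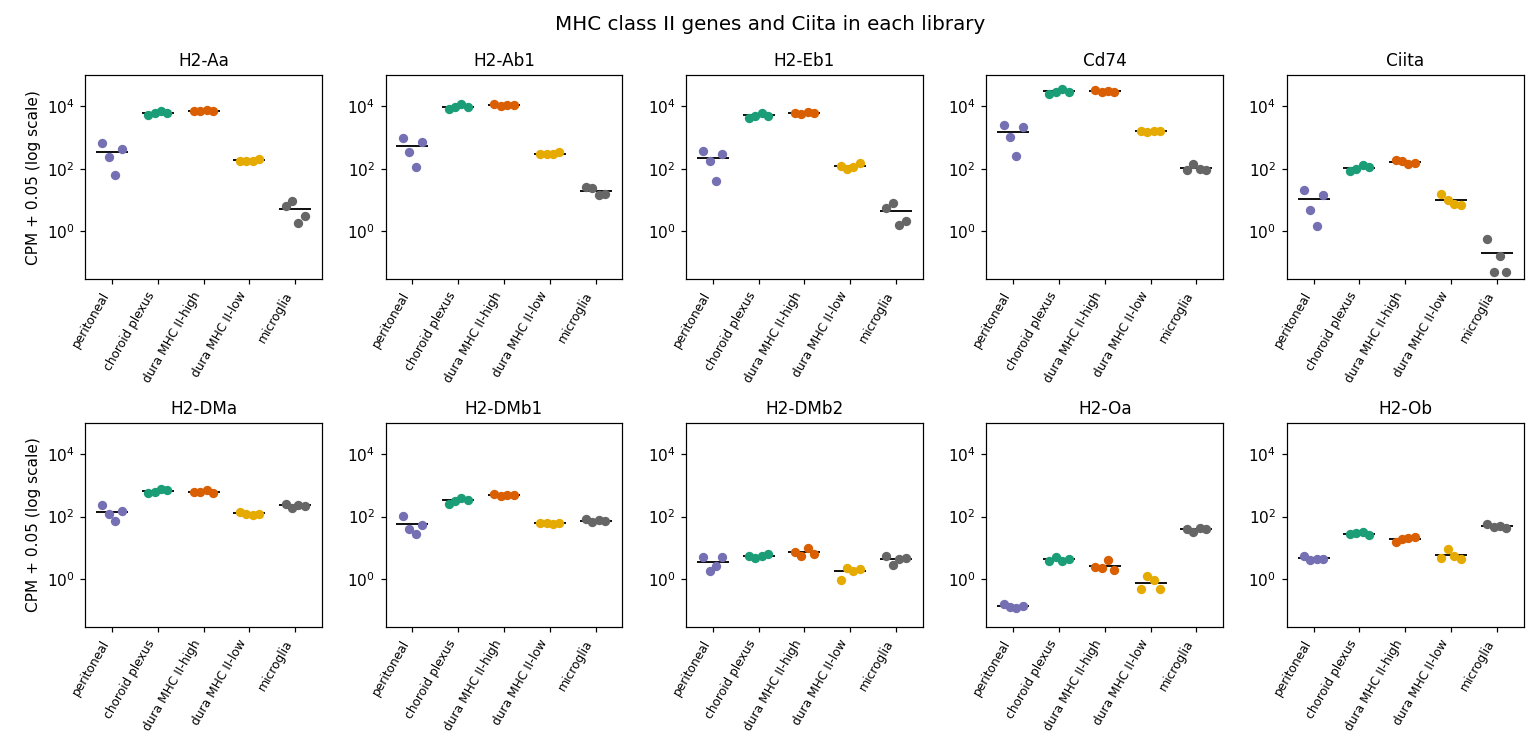
Level of each of the 10 genes in every library (points, CPM + 0.05, log axis) with the group mean (bar), populations from peritoneal to microglia along the x axis. Choroid plexus and MHC II-high dura lead in the classical genes, Cd74, Ciita, H2-DMa and H2-DMb1, whereas H2-Oa and H2-Ob are highest in microglia. H2-Oa is at or below 3 counts in every peritoneal library.

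All members but H2-DMb2 followed 3 orders. The classical chains, Cd74 and Ciita were highest in choroid plexus and MHC II-high dura, intermediate in peritoneal macrophages and MHC II-low dura, and lowest in microglia. H2-DMa and H2-DMb1 led in the same pair of populations but averaged more in microglia than in peritoneal macrophages and MHC II-low dura. H2-Oa and H2-Ob were highest in microglia, followed by choroid plexus, MHC II-high dura, MHC II-low dura and peritoneal macrophages. H2-DMb2 averaged 7.05 CPM in MHC II-high dura, 5.40 in choroid plexus, 4.25 in microglia, 3.53 in peritoneal macrophages and 1.75 in MHC II-low dura. The 3 classical genes and Cd74 together took 0.270% ± 0.191 of gene counts in peritoneal macrophages, 4.99% ± 0.538 in choroid plexus, 5.44% ± 0.102 in MHC II-high dura, 0.225% ± 0.0132 in MHC II-low dura and 0.0139% ± 0.00375 in microglia (SD, n = 4 each).

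Calls required an adjusted p under 0.05 (Benjamini-Hochberg over 13960 genes) in edgeR's quasi-likelihood test together with a difference of 2-fold or more. Choroid plexus over microglia had 7 of 10 members higher, beside 12.1% of all genes tested, and 1 lower, beside 7.11%; the members' median log2 fold change was 5.14 and that of all genes 0.09. MHC II-high dura over microglia had 7 higher (15.7% of all genes) and 2 lower (12.2%), with medians of 5.42 for the members and 0.02 for all genes. MHC II-low dura over microglia had 5 higher (13.8%) and 3 lower (12.7%), with medians of 1.79 and 0.02; the 5 were the classical chains, Cd74 and Ciita. Peritoneal macrophages over microglia had the same 5 higher (18.9%) and 2 lower (25.7%), with medians of 1.78 and -0.11.

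Choroid plexus over MHC II-low dura had all 10 members higher (8.63% of all genes higher and 4.18% lower), with a median log2 fold change of 2.98 against 0.01 over all genes. MHC II-high over MHC II-low dura also had all 10 higher (2.39% of all genes higher and 1.48% lower), with a median of 3.50 against 0.02, which the naming of these populations fixes for the classical genes at least. Peritoneal macrophages had 9 members lower than choroid plexus (24.1% of all genes lower) and 9 lower than MHC II-high dura (20.1%); H2-DMb2 was the exception in both, at -1.0 ± 0.34 against MHC II-high dura (adjusted p = 0.0168), just short of 2-fold. Peritoneal over MHC II-low dura had 2 of 10 called, 1 higher and 1 lower, beside 31.9% of all genes called in either direction; without peritoneal replicate 3 it had 5 of 10, and without MHC II-low replicate 1, peritoneal replicate 1 or peritoneal replicate 4 it had 1. Choroid plexus over MHC II-high dura had 0 of 10 called (9.88% of all genes in either direction); 3 members reached an unadjusted p under 0.05 in edgeR, and DESeq2 called 0 as well. Comparisons that share a population share its libraries and are not independent of each other. In every comparison with a dura population, against microglia too, the class II level of that population follows in part from its naming.

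**Figure D2:**
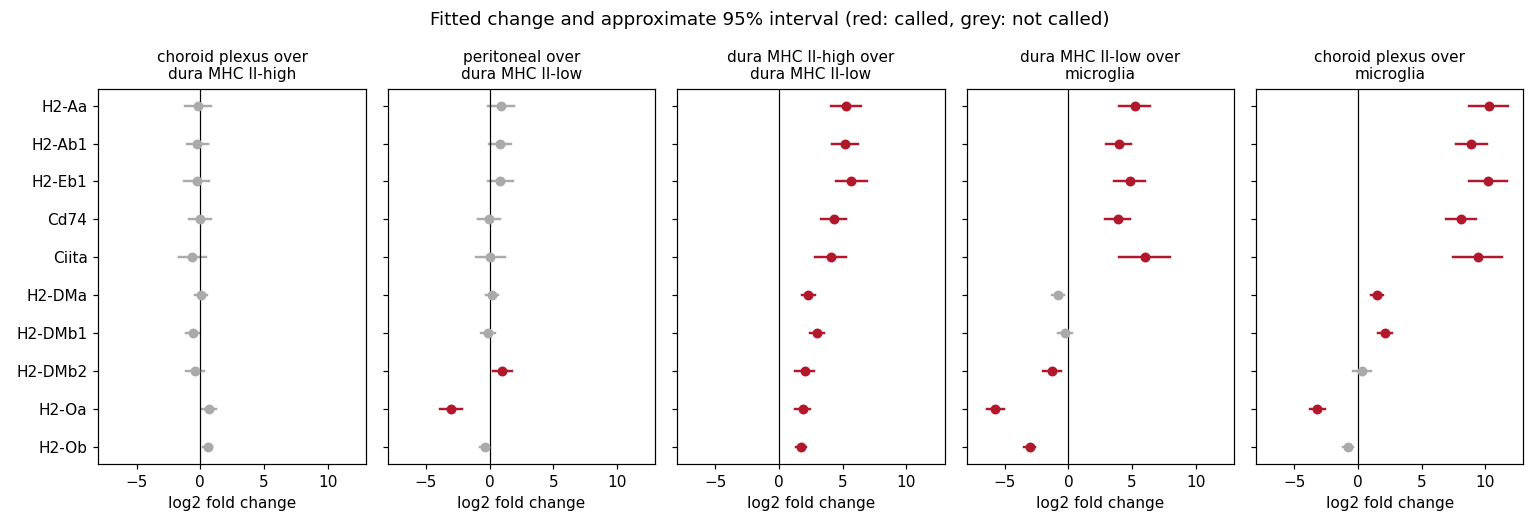
Log2 fold change of each gene with its approximate 95% interval (bars), first-named population over the second, red for genes that were called and grey for the rest. The panels are choroid plexus over MHC II-high dura, peritoneal over MHC II-low dura, MHC II-high over MHC II-low dura, MHC II-low dura over microglia, and choroid plexus over microglia. The classical genes, Cd74 and Ciita lie far to the right against microglia, while H2-Oa and H2-Ob lie to the left.

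H2-Aa, the alpha chain of the I-A molecule, had 659, 240.1, 63.4 and 431 CPM in peritoneal replicates 1 to 4, 5449, 5956, 7395 and 6154 CPM in choroid plexus, and 7279, 6888, 7455 and 6897 CPM in MHC II-high dura. It had 178, 178, 186 and 201 CPM in MHC II-low dura and 6.27, 9.14, 1.79 and 3.11 CPM in microglia replicates 1, 3, 4 and 5. All 4 choroid plexus and all 4 MHC II-high dura libraries were above every other library and overlapped each other, peritoneal libraries lay on both sides of MHC II-low dura, and microglia were below all. H2-Aa was higher in choroid plexus than in microglia by 10.26 ± 0.71 (log2 fold change ± approximate SE, adjusted p = 3.35e-09) and higher in MHC II-low dura than in microglia by 5.19 ± 0.58 (adjusted p = 1.09e-06).

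H2-Ab1, the beta chain of I-A, averaged 545 ± 394 CPM in peritoneal macrophages, 9676 ± 1336 in choroid plexus, 11307 ± 642 in MHC II-high dura, 309.9 ± 18.7 in MHC II-low dura and 20.2 ± 5.97 in microglia (SD, n = 4 each). H2-Eb1, the beta chain of I-E, averaged 220.4 ± 143 CPM in peritoneal macrophages, 5147 ± 758 in choroid plexus, 6254 ± 302 in MHC II-high dura, 122 ± 23.6 in MHC II-low dura and 4.32 ± 3.03 in microglia. The chains kept the same order, and microglia libraries did not overlap those of any other population in either gene. For choroid plexus over MHC II-high dura, the log2 fold change was -0.19 for H2-Aa (95% interval -1.19 to 0.81), -0.22 for H2-Ab1 (-1.07 to 0.63) and -0.28 for H2-Eb1 (-1.28 to 0.72). These intervals span a 2-fold difference in at least the downward direction, so equal levels were not shown. Their width rests on a single spread per gene from all populations, not on these libraries alone. For H2-Aa the log2 SD was 0.06 in MHC II-high dura and 0.19 in choroid plexus, against 1.47 in peritoneal macrophages and 0.92 in microglia. For peritoneal over MHC II-low dura the changes were 0.91, 0.81 and 0.85 in H2-Aa, H2-Ab1 and H2-Eb1, with edgeR adjusted p-values of 0.116, 0.0961 and 0.139. Without peritoneal replicate 3, all 3 were called there, at 1.25 in H2-Aa (adjusted p = 0.00545), 1.15 in H2-Ab1 (0.000711) and 1.2 in H2-Eb1 (0.0073).

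Cd74, the invariant chain, had 2619, 1047, 268 and 2243 CPM in peritoneal macrophages, 25473, 30012, 36351 and 29277 CPM in choroid plexus, and 33158, 29083, 31291 and 30001 CPM in MHC II-high dura. It had 1588, 1511, 1601 and 1626 CPM in MHC II-low dura and 94.9, 146, 101 and 92.0 CPM in microglia. Choroid plexus and MHC II-high dura overlapped, and their log2 fold change of -0.03 had an interval of -0.89 to 0.83. The highest microglia value came from replicate 3, the library with the epithelial transcripts. Cd74 was higher than in microglia by 8.13 ± 0.56 in choroid plexus, 8.15 ± 0.56 in MHC II-high dura, 3.87 ± 0.46 in MHC II-low dura and 3.83 ± 0.46 in peritoneal macrophages, with adjusted p-values from 1.23e-09 to 1.68e-06. Each of these changes was smaller than that of H2-Aa, H2-Ab1 or H2-Eb1 in the same comparison.

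Ciita, the activator, had 20.9, 4.96, 1.45 and 14.9 CPM in peritoneal macrophages, 82.6, 101, 130.1 and 118 CPM in choroid plexus, and 191, 177, 145 and 157 CPM in MHC II-high dura. It had 15.9, 10.3, 7.57 and 6.87 CPM in MHC II-low dura and 0.502, 0, 0.116 and 0 CPM in microglia, where the counts were 8, 0, 2 and 0. MHC II-high dura was above choroid plexus in every library, yet the difference was not called. The log2 fold change was -0.63 for choroid plexus over MHC II-high dura (interval -1.69 to 0.43, edgeR adjusted p = 0.381). The fit takes a single spread per gene from all populations. For Ciita the log2 SD was 0.18 in MHC II-high dura, 0.29 in choroid plexus and 1.57 in peritoneal macrophages. Over 28 alternatives in edgeR or DESeq2 the adjusted p ran from 0.00334 to 0.55, with changes of -0.74 to -0.52, short of 2-fold. Ciita was higher than in microglia by 9.39 in choroid plexus, 10.03 in MHC II-high dura, 5.99 in MHC II-low dura and 6.04 in peritoneal macrophages, with adjusted p-values from 7.05e-08 to 5.19e-05, and these sizes rest on 10 microglia counts in all. Peritoneal macrophages and MHC II-low dura overlapped, at a log2 fold change of 0.05 with an interval of -1.07 to 1.17. Of the exon length of Ciita, 3.45% overlaps Dexi.

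H2-DMa, the DM alpha chain, had 229, 124, 69.3 and 149 CPM in peritoneal macrophages, 553, 629, 741 and 704 CPM in choroid plexus, and 619, 614, 684 and 556 CPM in MHC II-high dura. It had 144, 123, 109.7 and 125 CPM in MHC II-low dura and 251, 192, 239 and 223 CPM in microglia. Every microglia library was above every MHC II-low dura library, the reverse of the classical genes. MHC II-low dura over microglia gave -0.85 ± 0.22 (adjusted p = 0.00392), short of 2-fold, and peritoneal over microglia gave -0.67 ± 0.22 (adjusted p = 0.0131), also short of it. Choroid plexus over microglia gave 1.54 ± 0.23 (adjusted p = 1.9e-05), a 2.90-fold difference where H2-Aa differed by 1229-fold. H2-DMa shares 10.4% of its exon length with Brd2, whose level was 130.4 CPM in peritoneal macrophages, 312 in choroid plexus, 283 in MHC II-high dura, 297 in MHC II-low dura and 666 in microglia; the part of Brd2 reads in the H2-DMa counts was not tested.

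H2-DMb1, the main DM beta chain, averaged 55.6 ± 32.6 CPM in peritoneal macrophages, 326 ± 59.1 in choroid plexus, 477 ± 24.6 in MHC II-high dura, 60.8 ± 2.13 in MHC II-low dura and 74.1 ± 5.87 in microglia. MHC II-low dura over microglia was -0.29 (interval -0.83 to 0.26) and peritoneal over microglia -0.41 (interval -0.96 to 0.13), neither called. As in Ciita, every choroid plexus library was below every MHC II-high dura library in H2-DMb1, at -0.55 (interval -1.09 to -0.01, edgeR adjusted p = 0.121). Over 28 alternatives in edgeR or DESeq2 the adjusted p of that comparison ran from 0.00216 to 0.265, with changes of -0.66 to -0.45, short of 2-fold. H2-DMb2, its paralog, stayed between 0.909 and 9.70 CPM in all libraries. Its only calls were higher in choroid plexus and in MHC II-high dura than in MHC II-low dura (1.62 ± 0.35 and 2.01 ± 0.35), higher in peritoneal macrophages than in MHC II-low dura (1.01 ± 0.34, adjusted p = 0.0161, with overlapping libraries) and lower in MHC II-low dura than in microglia (-1.28 ± 0.35). The peritoneal call was lost without MHC II-low replicate 1 (0.80), peritoneal replicate 1 (0.81) or peritoneal replicate 4 (0.85). Of the 50-base stretches of H2-DMb1 transcripts, 22.7% also occur in H2-DMb2, so the division of reads between these paralogs is uncertain.

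H2-Oa, the DO alpha chain, had 3, 2, 2 and 2 counts in the peritoneal libraries, at or below the floor in each. It had 3.69, 4.88, 3.86 and 4.45 CPM in choroid plexus, 2.41, 2.14, 4.04 and 1.89 CPM in MHC II-high dura, 0.416, 1.16, 0.867 and 0.423 CPM in MHC II-low dura, and 40.2, 31.9, 41.5 and 40.4 CPM in microglia. Microglia were above every other library, and MHC II-low dura was between the peritoneal libraries and those of choroid plexus and MHC II-high dura. H2-Oa was lower than in microglia at -3.19 ± 0.28 in choroid plexus (adjusted p = 9.68e-09), -3.88 ± 0.28 in MHC II-high dura (4.98e-10) and -5.73 ± 0.31 in MHC II-low dura (6.55e-12). The peritoneal fold change of -8.77 rests on 9 counts in all. Of the exon length of H2-Oa, 22.8% overlaps BC051537 on the other strand, which had 0 to 12 counts per population.

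H2-Ob, the DO beta chain, had 5.46, 3.90, 4.45 and 4.29 CPM in peritoneal macrophages, 26.9, 30.3, 30.9 and 25.5 CPM in choroid plexus, and 15.6, 18.6, 20.2 and 21.5 CPM in MHC II-high dura. It had 4.54, 8.81, 5.58 and 4.48 CPM in MHC II-low dura and 56.2, 45.5, 50.7 and 41.4 CPM in microglia. The order was the same as for H2-Oa, with peritoneal macrophages and MHC II-low dura overlapping. H2-Ob was lower than in microglia in MHC II-high dura (-1.35 ± 0.18), MHC II-low dura (-3.05 ± 0.19) and peritoneal macrophages (-3.42 ± 0.20), and in choroid plexus it was -0.77 ± 0.18 (adjusted p = 0.00164), short of 2-fold. Choroid plexus was above MHC II-high dura in every library, by 0.58 ± 0.18 (adjusted p = 0.0221), again short of 2-fold. Both DO genes were higher in MHC II-high than in MHC II-low dura, by 1.85 ± 0.29 in H2-Oa and 1.69 ± 0.19 in H2-Ob, less than the 5.19 to 5.68 of the classical genes there.

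Per kilobase of exon the genes can be set against each other roughly. The length counts all annotated exons of a gene, and the transcripts present may be shorter. In MHC II-high dura the level was 18394 CPM per kb for Cd74, 4403 for H2-Ab1, 3217 for H2-Eb1, 1877 for H2-Aa, 284 for H2-DMb1, 179 for H2-DMa, 17.5 for Ciita, 4.04 for H2-DMb2, 3.53 for H2-Ob and 1.86 for H2-Oa. In microglia the same scale gave 65.7 for H2-DMa, 64.6 for Cd74, 44.1 for H2-DMb1, 27.4 for H2-Oa, 9.0 for H2-Ob, 7.87 for H2-Ab1, 2.43 for H2-DMb2, 2.22 for H2-Eb1, 1.34 for H2-Aa and 0.0162 for Ciita. DM and DO alpha chains thus exceeded every classical chain per kilobase in microglia, whereas in MHC II-high dura the classical chains exceeded them all.

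The balance between roles was read within each library as a log2 ratio of CPM + 0.5 and tested by a two-sided exact permutation test of 4 against 4 libraries. The scaling of the library enters such a ratio only through the 0.5, which matters for genes at a few CPM or less. Over 5 ratios and 10 comparisons, 36 of 50 were called at an adjusted p under 0.05, each at the smallest p the design allows (exact p = 0.0286, adjusted p = 0.0397). The Cd74, Ciita and DM ratios divide by the classical mean. Their differences between the dura populations, which were named for MHC class II, describe in part how those cells were divided. The DM ratio (mean log2 of H2-DMa and H2-DMb1 over the classical mean) was -1.69 ± 0.75 in peritoneal macrophages, -3.87 ± 0.09 in choroid plexus, -3.87 ± 0.03 in MHC II-high dura, -1.13 ± 0.17 in MHC II-low dura and 4.14 ± 0.84 in microglia (SD, n = 4 each). All pairs were called except choroid plexus against MHC II-high dura (difference 0.00) and peritoneal against MHC II-low dura (-0.56). Microglia are the population in which DM transcripts exceeded the classical ones in all 4 libraries.

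The Cd74 ratio, Cd74 over the classical mean, was 2.12 ± 0.14 in peritoneal macrophages, 2.16 ± 0.04 in choroid plexus, 1.96 ± 0.04 in MHC II-high dura, 3.05 ± 0.11 in MHC II-low dura and 3.87 ± 0.62 in microglia. Peritoneal macrophages and MHC II-low dura, whose Cd74 levels overlapped, differed by -0.93 in this ratio, which was called. The call between MHC II-low dura and microglia (-0.82) was lost with a pseudocount of 2 CPM and with summed CPM, as was that of 0.16 between peritoneal macrophages and MHC II-high dura. The DO ratio, DO over DM, was -5.57 ± 0.68 in peritoneal macrophages, -5.30 ± 0.22 in choroid plexus, -6.15 ± 0.20 in MHC II-high dura, -5.03 ± 0.45 in MHC II-low dura and -1.58 ± 0.05 in microglia. Microglia differed from each of the others by 3.45 to 4.57 log2 units, and choroid plexus was above MHC II-high dura by 0.85; all were called. The peritoneal value includes H2-Oa at its floor and so depends on the pseudocount.

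The Ciita ratio, Ciita over the classical mean, was -5.08 ± 0.30 in peritoneal macrophages, -5.97 ± 0.13 in choroid plexus, -5.57 ± 0.19 in MHC II-high dura, -4.24 ± 0.61 in MHC II-low dura and -3.55 ± 0.81 in microglia. MHC II-high was below MHC II-low dura by -1.34 and choroid plexus below MHC II-low dura by -1.74, both called. The calls of choroid plexus, MHC II-high dura and peritoneal macrophages against microglia were lost with a pseudocount of 0.1 CPM, as Ciita was near 0 in microglia. The H2-DMb2 ratio, H2-DMb2 over H2-DMb1, was -3.72 ± 0.58 in peritoneal macrophages, -5.78 ± 0.30 in choroid plexus, -6.01 ± 0.32 in MHC II-high dura, -4.81 ± 0.41 in MHC II-low dura and -4.00 ± 0.23 in microglia. It was called higher in peritoneal macrophages than in all but microglia.

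**Figure D3:**
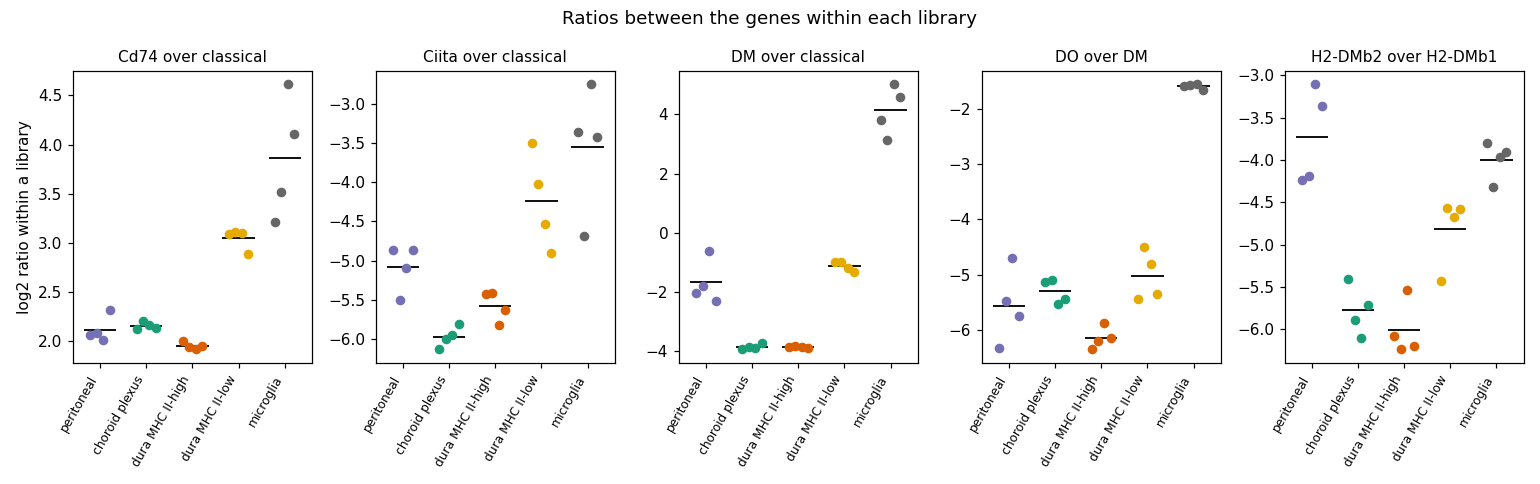
Log2 ratio between roles within each library (points) with the group mean (bar), 1 panel per ratio, populations from peritoneal to microglia along the x axis. The DM ratio lies above 0 in microglia and below 0 elsewhere, and the DO ratio of microglia lies above that of every other library.

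Within the peritoneal group the classical chains, Cd74 and Ciita varied together. Replicate 3 had 9.62% of the H2-Aa level of replicate 1, 11.1% of H2-Ab1, 11.04% of H2-Eb1, 10.2% of Cd74 and 6.92% of Ciita. The same library had 30.3% of H2-DMa, 26.2% of H2-DMb1, 54.1% of H2-DMb2 and 81.5% of H2-Ob. The highest library exceeded the lowest by 10.4-fold in H2-Aa among peritoneal macrophages, against 1.36-fold in choroid plexus, 1.08-fold in MHC II-high dura and 1.13-fold in MHC II-low dura; microglia, at a few CPM, reached 5.09-fold. In peritoneal replicates 1 to 4, B cell markers (7 of 9 in the files) summed to 20.7, 4.63, 12.3 and 26.02 CPM, dendritic cell markers to 23.9, 25.0, 22.3 and 32.9 CPM, border macrophage markers to 980, 1520, 1890 and 782 CPM and large peritoneal macrophage markers to 3671, 3542, 3259 and 3714 CPM. The sum of border macrophage markers, mostly Pf4 (832, 1378, 1752 and 622 CPM), ran in the reverse order of H2-Aa except between replicates 1 and 4. Mrc1 of the same list (58.4, 42.2, 27.7 and 62.2 CPM) instead ran with H2-Aa except between replicates 1 and 4. Lyve1, Cd163 and Ms4a7 followed neither order. Replicate 3 was lowest in large peritoneal macrophage markers. The part of these markers in the spread was not tested.

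**Figure D4:**
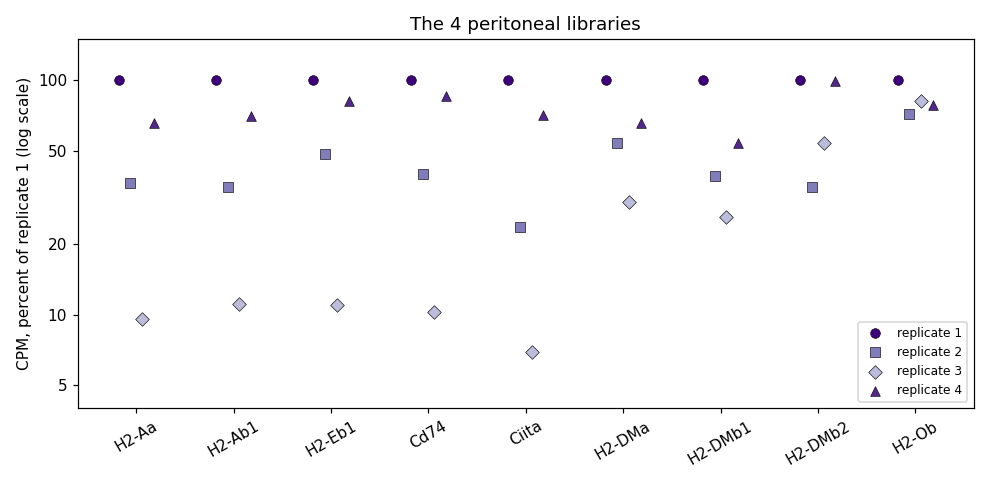
Level of each gene (x axis) in peritoneal replicates 1 to 4 as a percentage of replicate 1 (y axis, log scale). Each replicate has its own marker shape. H2-Oa is left out because it has 2 or 3 counts per library. The classical genes, Cd74 and Ciita drop to 6.92–11.1% in replicate 3, and H2-Ob stays at 81.5%.

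Dendritic cells and B cells also carry class II molecules, so their markers were read beside the members. The 10 dendritic cell markers summed to 22.3–32.9 CPM in peritoneal libraries, 34.4–40.02 in choroid plexus, 93.8–119 in MHC II-high dura, 58.3–89.1 in MHC II-low dura and 27.0–34.9 in microglia, and none was at 0 in all libraries of choroid plexus or dura. Of these 10 markers, edgeR called 4 higher (Flt3, Clec9a, Batf3 and Itgax) and 1 lower (Zbtb46) in MHC II-high than in MHC II-low dura. Of all genes, 2.39% were higher and 1.48% lower there. In that comparison 8 markers had an unadjusted p under 0.05 in edgeR, and DESeq2 called 7. Choroid plexus over MHC II-low dura had 3 higher (Flt3, Clec9a and Batf3) and 2 lower (Zbtb46 and Cd209a), beside 8.63% and 4.18% of all genes. Choroid plexus over MHC II-high dura had 0 higher and 3 lower (Cd209a, Dpp4 and Itgax), beside 9.88% of all genes in either direction. DESeq2 called 5 and 3 in these last comparisons. Batf3, a transcription factor of dendritic cells, averaged 14.5 ± 2.18 CPM in choroid plexus, 16.9 ± 1.64 in MHC II-high dura and 4.30 ± 0.918 in MHC II-low dura. Itgax, which encodes CD11c, averaged 3.56 ± 0.697 CPM in choroid plexus, 36.7 ± 13.1 in MHC II-high dura and 6.14 ± 1.61 in MHC II-low dura. Zbtb46, a factor of classical dendritic cells, averaged 9.45 ± 1.08 CPM in choroid plexus, 10.2 ± 1.35 in MHC II-high dura and 24.6 ± 3.69 in MHC II-low dura. B cell markers, mostly Cd79b and Cd22, summed to 4.63–26.02 CPM in peritoneal macrophages, 82.9–98.6 in choroid plexus, 77.4–83.3 in MHC II-high dura, 71.6–93.9 in MHC II-low dura and 47.6–59.0 in microglia, with Pax5 at 0 in the last 4. The part of either cell type in the members' levels was not tested.

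Of 17 genes of the class II enhanceosome and its inducers, edgeR called 0 between MHC II-high and MHC II-low dura, where 2.39% of all genes were higher and 1.48% lower, so that a count of 0 of 17 is near that background; 2 had an unadjusted p under 0.05 and DESeq2 called 0. Rfx5, an RFX subunit, averaged 23.2 ± 3.70 CPM in MHC II-high and 23.9 ± 2.33 in MHC II-low dura, and Rfxap, another, averaged 26.3 ± 2.66 CPM in MHC II-high and 26.2 ± 3.72 in MHC II-low dura. edgeR and DESeq2 also called 0 between choroid plexus and MHC II-high dura (11 at an unadjusted p under 0.05; 9.88% of all genes called in either direction) and 0 between choroid plexus and MHC II-low dura (8 at that level; 8.63% of all genes higher and 4.18% lower). Against microglia, edgeR called 1 higher and 0 lower of 17 in choroid plexus (12.1% and 7.11% of all genes), 3 higher and 1 lower in MHC II-high dura (15.7% and 12.2%), 3 higher and 1 lower in MHC II-low dura (13.8% and 12.7%), and 1 higher and 5 lower in peritoneal macrophages (18.9% and 25.7%). By DESeq2, 2, 5, 3 and 6 of the 17 were called in these comparisons. Irf4, an interferon regulatory factor of myeloid and B cells, was the gene higher in all 4, at 16.6 ± 2.49 CPM in choroid plexus and 6.71 ± 2.07 in microglia (1.31 ± 0.20, adjusted p = 2.56e-05). Irf8, which drives macrophage and microglia identity, averaged 148 ± 20.7 CPM in peritoneal macrophages, 721 ± 28.4 in choroid plexus, 515 ± 47.4 in MHC II-high dura, 483 ± 25.98 in MHC II-low dura and 986 ± 85.7 in microglia. It was lower in peritoneal macrophages than in each other population, as were Ifngr1 and Ifngr2, the chains of the interferon-gamma receptor: against MHC II-low dura, whose classical chains overlapped with theirs, the changes were -1.71 ± 0.10 for Irf8, -1.49 ± 0.11 for Ifngr1 and -1.5 ± 0.11 for Ifngr2.

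Of 8 antigen-processing genes, 2 were lower in MHC II-high than in MHC II-low dura (1.48% of all genes) and 0 higher (2.39%): Ctsl and Ctsd, both endosomal proteases. Ctsl averaged 250.2 ± 27.5 CPM in MHC II-high and 509.8 ± 57.6 in MHC II-low dura (-1.03 ± 0.13, adjusted p = 2.02e-05), and Ctsd 1966 ± 134 CPM in MHC II-high and 4226 ± 451 in MHC II-low dura (-1.10 ± 0.10, adjusted p = 1.17e-06). Ctss, the protease that trims the invariant chain in macrophages and dendritic cells, was 3593 ± 628 CPM in MHC II-high and 2183 ± 278 CPM in MHC II-low dura, at 0.72 ± 0.16 (adjusted p = 0.00422), short of 2-fold. Microglia, lowest in class II, had the highest Ctss at 6378 ± 830 CPM, and the log2 fold change over microglia was -1.55 ± 0.16 in MHC II-low dura and -1.86 ± 0.16 in peritoneal macrophages, both called. Ctsd was lower than in microglia in all 4 other populations, at -3.12 ± 0.11 in choroid plexus and -3.15 ± 0.11 in MHC II-high dura. Of these 8 genes, edgeR called 1 higher and 2 lower than in microglia in choroid plexus (12.1% and 7.11% of all genes), 1 higher and 3 lower in MHC II-high dura (15.7% and 12.2%), 2 higher and 4 lower in MHC II-low dura (13.8% and 12.7%), and 1 higher and 4 lower in peritoneal macrophages (18.9% and 25.7%).

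Of 5 measured genes of class II turnover, edgeR and DESeq2 called 0 between MHC II-high and MHC II-low dura (2.39% of all genes higher, 1.48% lower), with 3 at an unadjusted p under 0.05. March1, the ligase that marks surface class II for removal, averaged 60.3 ± 11.8 CPM in peritoneal macrophages, 132 ± 10.04 in choroid plexus, 152 ± 10.01 in MHC II-high dura, 120.02 ± 17.4 in MHC II-low dura and 155 ± 22.1 in microglia. Cd83, which opposes March1, averaged 2.24 ± 0.862 CPM in peritoneal macrophages and between 1173 and 1612 CPM in the other populations. Cd83 fell by 9.04 in peritoneal macrophages against MHC II-low dura (edgeR adjusted p = 7.74e-13), populations whose classical chains overlapped.

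Of 12 other tested genes of the class II locus, edgeR and DESeq2 called 0 between MHC II-high and MHC II-low dura (2.39% of all genes higher, 1.48% lower), with 1 at an unadjusted p under 0.05. Against microglia, edgeR called 5 higher and 1 lower in choroid plexus (12.1% and 7.11% of all genes), 5 higher and 3 lower in MHC II-high dura (15.7% and 12.2%), 5 higher and 2 lower in MHC II-low dura (13.8% and 12.7%), and 3 higher and 6 lower in peritoneal macrophages (18.9% and 25.7%). Brd2 was lower in all 4, Notch4 in all but choroid plexus, and Slc39a7 in MHC II-high dura. Btnl2, Rxrb, Ring1 and Col11a2 were lower in peritoneal macrophages. The 5 higher genes were the same in choroid plexus and both dura populations: Psmb8, Psmb9, Tap1, H2-K1 and Btnl2. Of these, Psmb8, Psmb9, Tap1 and H2-K1 serve class I presentation, as proteasome subunits, peptide transporter and class I heavy chain. Psmb8 averaged 374 ± 59.1 CPM in choroid plexus, 328 ± 65.9 in MHC II-high dura, 252 ± 38.7 in MHC II-low dura and 126 ± 22.2 in microglia. Its log2 fold change over microglia was 1.57 ± 0.24 in choroid plexus, where that of H2-Aa was 10.26.

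The genes whose pattern over the 20 libraries was most like the classical mean were Plbd1 (Pearson r = 0.968), Cd52 (0.960), Cyp4f18 (0.953), Cnn2 (0.951) and Clic4 (0.948), of 7833 genes considered. The same 5 were nearest to Ciita, led by Cyp4f18 (0.974). Plbd1 averaged 27.1 CPM in peritoneal macrophages, 305 in choroid plexus, 473 in MHC II-high dura, 61.5 in MHC II-low dura and 0.355 in microglia. Cyp4f18 averaged 14.2 CPM in peritoneal macrophages, 128 in choroid plexus, 174 in MHC II-high dura, 38.7 in MHC II-low dura and 1.76 in microglia. These correlations describe libraries that fall into 5 populations, and they carry no test.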

How the data were processed

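Total RNA of 20 macrophage samples was sequenced, 4 in each of 5 populations. The deposited unit is the raw count of reads per gene symbol. Per the labels the genome was mm10, and SAMtools 0.1.18, TopHat2 2.1.0, Trimmomatic 0.38 and FastQC 0.11.4 appear in the submitters' processing notes without roles; which counter, annotation or strand setting was used is not stated there. Reads in no feature (5.67–13.1%) and ambiguous reads (0.836–1.51%) were left out. CPM were computed here from these counts with TMM factors, and the floor covers counting error only. The 95% intervals of log2 fold changes come from the spread between libraries, a single value per gene over all 5 populations. A gene that varies much in 1 population thus has wide intervals in every comparison. All 20 libraries were fitted in edgeR 4.0.16 under R 4.3.3 (filterByExpr, 13960 genes, robust quasi-likelihood F test, 15 residual degrees of freedom, common biological coefficient of variation 0.302), with Benjamini-Hochberg adjustment over all genes. The approximate SE is the change over the square root of F. Ratios used exact permutation tests, adjusted over 50. The script was tested on simulated data. Exon lengths and overlaps are from GENCODE M21 on mm10.

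The members, gene lists and markers were chosen with earlier results of these data known. All 10 members were named in each comparison; nearest genes were the 5 non-members with the highest Pearson r over log2(CPM + 0.5), at 20 CPM or more in a population. Listed genes were counted in full. Alternatives were DESeq2 1.42.0, its size factors in edgeR, no filter, a filter of 10 CPM, 2 groups only, a replicate block, no fold minimum, each replicate left out, pseudocounts of 0.1 and 2 CPM, and summed CPM. Same-numbered libraries of compared groups had deviations correlated at -0.15 to 0.16. Between the dura populations all 4 same-numbered pairs were at 0.1 to 0.16, and other pairs at most 0.04. The labels state no pairing, so the main fit had no block, and the replicate block was run as an alternative.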

Additional observations from a re-analysis of the deposited data

Results flagged for a closer look

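In microglia, 1 library stood far from the other 3 in 2 of 50 groups of 4 tested by Dixon's criterion, which chance flags in about 1 in 20 groups. Cd74 was 145.934 CPM in microglia replicate 3, against 92.0–101 CPM in the others. H2-Oa was 31.9153 CPM in the same library, against 40.2–41.5 CPM in the others. That library had 19578 CPM of choroid plexus epithelium markers, and their part in these values was not tested.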

How the results depend on the processing

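No called result changed direction under any alternative run. With the size factors of DESeq2, with DESeq2 itself and with no filter, each of the 10 members kept its call, or lack of 1, in all 10 comparisons. With no fold minimum, choroid plexus against MHC II-high dura had 1 member called, H2-Ob. The same setting added 4 calls elsewhere: H2-Ob in choroid plexus (adjusted p = 0.00164), H2-DMa in MHC II-low dura (0.00392) and H2-DMa in peritoneal macrophages (0.0131), each lower than in microglia, and H2-DMb2 lower in peritoneal macrophages than in MHC II-high dura (0.0168). Peritoneal against MHC II-low dura had 2 members called, but 1 with a filter of 10 CPM, which drops H2-DMb2, 1 with a replicate block, 1 with 2 groups only, and 1 with peritoneal libraries 2 and 4 alone, an alternative chosen after seeing the data. Leaving out each replicate gave 1 to 5 there: 1 without MHC II-low replicate 1, peritoneal replicate 1 or peritoneal replicate 4, and 5 without peritoneal replicate 3. Peritoneal against MHC II-high dura gave 9 to 10, and the other 8 comparisons kept their counts in all 20 such fits. With the replicate block, H2-DMb2 was also called for peritoneal against MHC II-high dura, and the count moved in no comparison beyond these 2; each dura library correlated best with its own number across the dura populations (0.10 to 0.16, other pairs at most 0.04), a hint from the data and not the design. Of 50 ratio comparisons 36 were called, and 33 with a pseudocount of 0.1 CPM, 39 with 2 CPM and 34 with summed CPM; with a replicate left out, ratios are values only, since 3 against 4 cannot go below p = 0.0571 (exact). Depth limits H2-Oa in peritoneal macrophages and Ciita in microglia, both near the floor.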

Other observations

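H2-Ea-ps, the remnant of the I-E alpha chain gene that is known to be inactive in mice of the H2-b haplotype such as C57BL/6, had 1 count in choroid plexus and 10 in MHC II-high dura, each summed over 4 libraries, and none in the other populations. H2-Eb1, which encodes the I-E beta chain, averaged 5147 CPM in choroid plexus and 6254 CPM in MHC II-high dura. H2-Eb2 had 3 counts in peritoneal macrophages, 18 in choroid plexus, 17 in MHC II-high dura, 1 in MHC II-low dura and 1 in microglia.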
